A study of Danio rerio with 6 samples.

Results

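Genes for protease inhibitors were examined in zebrafish larvae exposed to Lurasidone, an antipsychotic drug that blocks dopamine and serotonin receptors. The genes were chosen by name alone, as the serpins, the inter-alpha-trypsin inhibitor heavy chains (ITIH), the tissue inhibitors of metalloproteinases (TIMPs), the cystatins, the Kunitz-type genes named spint, the Kazal-type genes named spink and the alpha-2-macroglobulin-like gene a2ml. This gave 49 of the 39214 genes in the deposited table, with 23 serpins, 6 ITIH genes, 6 Kazal-type genes, 5 TIMPs, 5 cystatins, 3 Kunitz-type genes and a2ml. The Lurasidone group was wild type larvae of the AB strain kept in 4 mg/L of the drug and collected at 5 dpf, and the control group was AB larvae of the same age without the drug, with 3 RNA-seq libraries in each group. The methods describe solvent alone for the controls. The labels put the start of exposure at 3 hpf and the methods at 5 hpf. How many larvae went into a library is not given in the sources used here, so the p-values measure the spread between these libraries.

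Proteases cut other proteins, and most organisms keep them in check with dedicated inhibitors. Serpins offer the protease a loop as bait and trap it in an inactive complex, and many of them circulate in blood plasma, where they limit clotting, clot breakdown and elastase from white blood cells. TIMPs block the metalloproteinases that break down extracellular matrix, cystatins block cysteine proteases such as cathepsins, and Kunitz and Kazal domains fit into the active site of serine proteases like a substrate that is not released. Alpha-2-macroglobulins enclose a protease in a cage. Several ITIH proteins are made by the liver in mammals and are linked in plasma to a small Kunitz inhibitor, bikunin. In these complexes bikunin is the protease inhibitor. Heavy chains can also be attached to hyaluronan in the matrix.

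The values were FPKM (fragment counts scaled by the length of the gene and a denominator for each library). Fragments on genes numbered 12553624, 11749887 and 11923925 in the Lurasidone libraries, against 15107664, 12210400 and 12276511 in the control libraries. Genes reaching 0.5 FPKM in 3 or more libraries were tested, 23409 in all. Log2(FPKM + 1) was compared between the groups with limma, so fold changes of low genes are understated, and a gene is called higher or lower here when its p adjusted over all tested genes (Benjamini-Hochberg) was at most 0.05. A DEG also had to be past 1 or -1 on the log2 scale. The median log2 fold change over all tested genes was -0.02. The methods name both entire larvae and brain as the source of the RNA. Of 12 liver markers listed, 11 were found among the gene names. Marker genes of liver (11 of 11 at 1 FPKM or more), exocrine pancreas (7 of 8) and skeletal muscle (6 of 8) were present beside those of brain (8 of 8), so the libraries held tissues of the trunk. In such mixed tissue, fewer cells of a type and less RNA per cell cannot be told apart.

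A larger share of the protease inhibitor set than of all tested genes was called higher in Lurasidone larvae. The set includes the ITIH genes, which encode heavy chains and not the inhibitor bikunin. Of the 49 genes, 40 were tested, and 11 of these were higher (27.5%), where 5.79% of all tested genes were higher. No member was lower by limma (0 of 40), where 3.90% of all tested genes were lower. At that share few of 40 genes would be lower, so the 0 says little about the members. At an unadjusted p below 0.05, 15 members had a positive and 2 a negative log2 fold change, and limma voom on the fragments called 12 higher and 0 lower. Over all genes, 6591 of the 23409 tested were at an unadjusted p below 0.05. Voom called 1925 of all 27964 genes in its fit higher and 985 lower. Among the 11 genes were 9 DEGs (2.61% of all tested genes were DEGs on the higher side), with 0 DEGs on the lower side (1.22% of all). The Lurasidone libraries lay entirely above the control libraries in 14 members (35%, against 17.1% of all tested genes) and entirely below them in 3 (7.5%, against 16.2%), and they overlapped in 23. The median log2 fold change of the 40 was 0.21, between -0.92 (spink4) and 1.81 (itih3b). Of the 40, 25 were above 0, where 48.4% of all tested genes were.

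**Figure D1:**
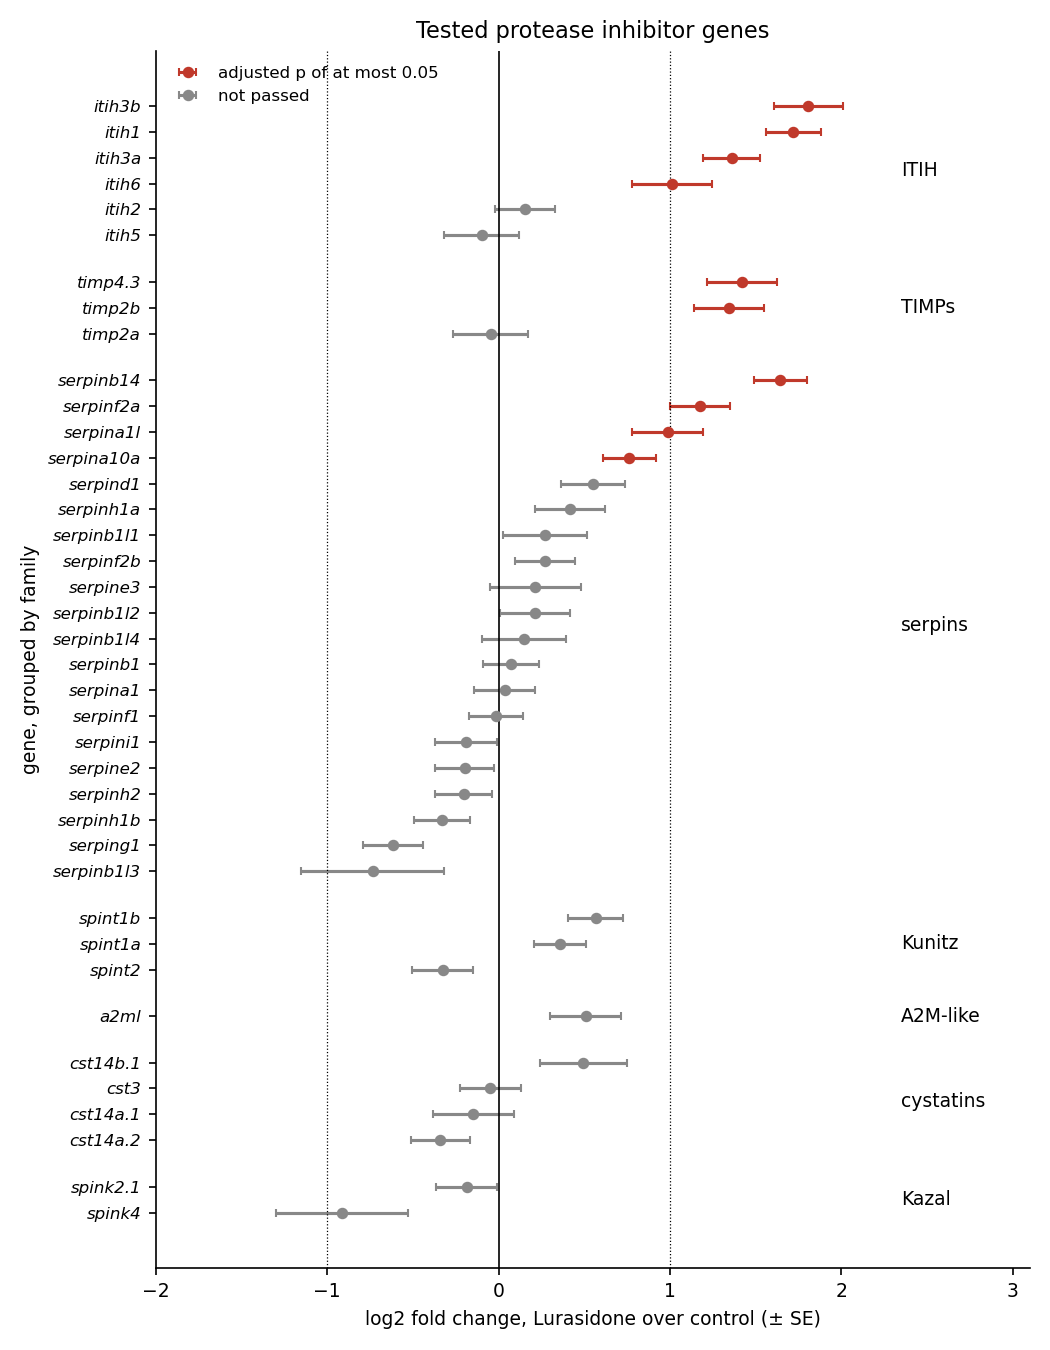
Log2 fold change (Lurasidone over control, on log2(FPKM + 1), bars are the SE of the limma model) of 39 tested protease inhibitor genes, ordered within families. Red points passed an adjusted p of at most 0.05, and dotted lines mark a fold change of 1 on the log2 scale. The 10 genes drawn that passed were 4 ITIH genes, 2 TIMPs and 4 serpins, and they lay to the right of 0.

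The 9 members that were not tested were spink2.2, spink2.3, spink2.4, spink2.5, timp4.1, timp4.2, cst14b.2, serpina7 and serpinc1. Of these, 8 stayed at or below 0.790 FPKM in every library, and serpinc1 was listed at 0. Over all 49 members the mean FPKM of the 6 libraries was at least 100 in 1 gene (serpina1l), from 10 to 100 in 18, from 1 to 10 in 18 and under 1 in 12. Serpins made up most of the summed level, with 776 ± 93.1 FPKM in Lurasidone and 603 ± 86.8 FPKM in control libraries (SD, n = 3 each), of 1087 ± 131 FPKM in Lurasidone and 867 ± 74.3 FPKM in control for all members.

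Most of the ITIH genes were higher. Of the 6 genes, all tested, 4 were higher and were DEGs, and the median log2 fold change of the 6 was 1.19. Of all tested genes, 5.79% were higher and 2.61% were DEGs on the higher side. The gene itih3b (chromosome 11, 37178271 to 37200200) had 11.5, 19.8 and 14.5 FPKM in Lurasidone libraries, against 3.25, 3.56 and 3.85 FPKM in control libraries. Its log2 fold change was 1.81 ± 0.20 (SE), with an adjusted p of 0.00162. Its lowest Lurasidone library was well above its highest control library, and this gene had the highest log2 fold change of all members.

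A pair of further heavy chain genes lies on the same chromosome, itih3a at 3614326 to 3629216 and itih1 at 3630627 to 3647014, side by side on the minus strand. The best protein match given for both, and for itih3b, was heavy chain H3, and a table of current symbols lists them as itih3a.1, itih3a.2 and itih3b.1. The gene itih1 had 7.78, 8.02 and 7.06 FPKM in Lurasidone libraries, against 1.32, 1.79 and 1.76 FPKM in control libraries (log2 fold change 1.72 ± 0.16, adjusted p = 0.00079). For itih3a the values were 3.70, 4.44 and 3.90 FPKM in Lurasidone, against 1.06, 0.780 and 1.01 FPKM in control libraries (1.36 ± 0.17, adjusted p = 0.00216). Both neighbours were thus about 4 to 5 times as high in Lurasidone by their mean FPKM, 4.70-fold for itih1 and 4.21-fold for itih3a, and the spread within each group was small beside this difference. How the authors divided reads between these related sequences is not given in the sources used here.

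The next gene, itih6 (chromosome 23, 26039524 to 26056072), was also a DEG but closer to the threshold. It had 6.58, 5.93 and 7.92 FPKM in Lurasidone, against 2.87, 1.82 and 4.23 FPKM in control libraries (1.01 ± 0.23, adjusted p = 0.0273). The groups did not overlap, but the call did not hold without the filter (adjusted p = 0.0715) or without Lurasidone replicate 1 (0.0590), 2 (0.0608) or 3 (0.0929) or control replicate 1 (0.0955) or 2 (0.0630). Only without control replicate 3 did it pass among the analyses that left out a library (0.0139).

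The most abundant heavy chain gene chosen by name, itih2, did not follow these 4. A heavy chain gene with another name, zgc_112265, had a higher mean over the Lurasidone libraries (81.4 FPKM) and was called higher, as given under other observations. The gene itih2 (chromosome 4), a partner of bikunin in plasma, had 41.3, 48.7 and 38.2 FPKM in Lurasidone, against 35.5, 33.9 and 45.8 FPKM in control libraries, and the groups overlapped (0.16 ± 0.18, adjusted p = 0.594). Its neighbour itih5 was near 1 FPKM in both groups (-0.10 ± 0.22, adjusted p = 0.801). The bikunin gene ambp, outside the set chosen by name, was not called (-0.41 ± 0.23, adjusted p = 0.268). It had 43.2, 51.9 and 36.4 FPKM in Lurasidone, against 61.5, 74.1 and 42.3 FPKM in control libraries, with overlapping groups. The ratio of itih1 to itih2 within a library was 0.179 ± 0.0128 in Lurasidone and 0.0428 ± 0.00864 in control libraries (SD, n = 3 each). The ratio of itih3b to itih3a was 3.76 ± 0.668 in Lurasidone and 3.81 ± 0.753 in control libraries, with overlapping groups.

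**Figure D2:**
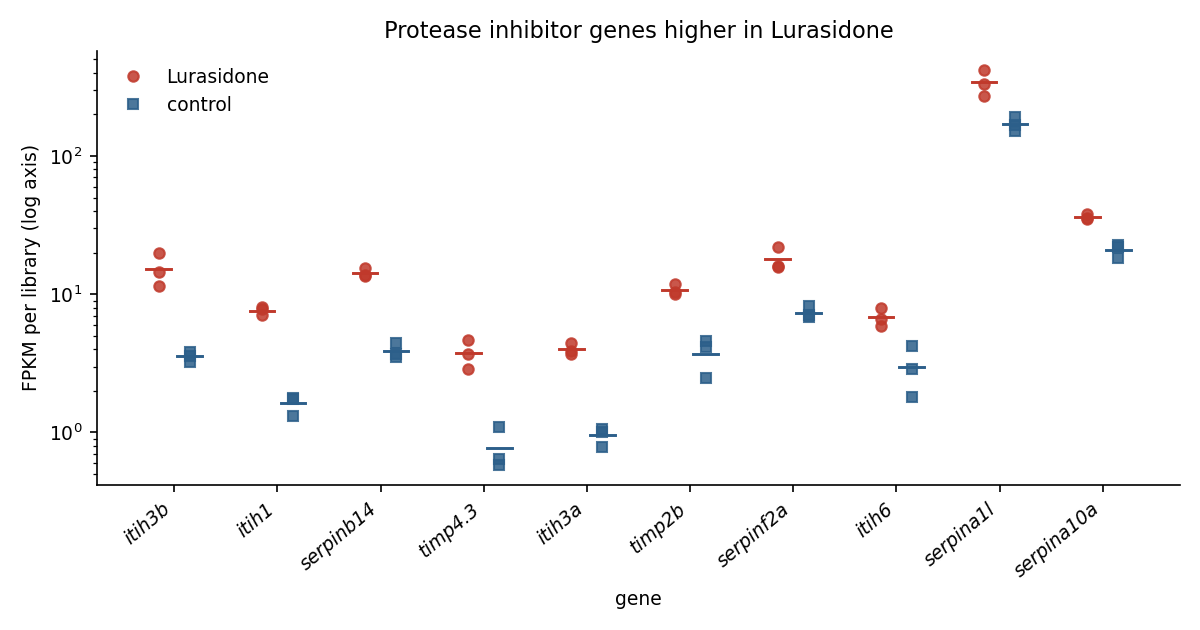
FPKM on a log axis of 10 protease inhibitor genes called higher, for each of the 3 Lurasidone libraries (circles) and 3 control libraries (squares), with the mean of each group as a bar. In all 10 genes the lowest Lurasidone library is above the highest control library, and the levels span from under 1 FPKM (timp4.3 in control) to 416 FPKM (serpina1l in Lurasidone replicate 2). The genes were drawn because these same libraries called them higher, so the separation largely follows from the selection.

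Among the 5 TIMPs, 3 were tested and 2 were higher, both DEGs (2.61% of all tested genes were DEGs on the higher side). The gene timp2b (chromosome 3, 57632965 to 57666996) had 10.3, 10.04 and 11.95 FPKM in Lurasidone libraries, against 4.58, 2.46 and 4.13 FPKM in control libraries (1.34 ± 0.20, adjusted p = 0.00552). TIMP2 in mammals both inhibits metalloproteinases and takes part, with the membrane protease MMP14, in turning pro-MMP2 into its active form. The other zebrafish copy, timp2a, was low, with 2.00 ± 0.435 FPKM in Lurasidone and 2.14 ± 0.730 FPKM in control libraries (SD, n = 3 each), and its groups overlapped (-0.05 ± 0.22, adjusted p = 0.914). An unnamed gene model on an alternate contig shares 36815 bases of the timp2a interval and has TIMP2 as its best protein match. Its level was 24.3 ± 2.22 FPKM in Lurasidone and 19.8 ± 1.44 FPKM in control libraries (0.28, adjusted p = 0.246). How fragments were divided between the 2 models is not given in the sources used here.

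The 3 timp4 genes lie in a row on chromosome 11 between 691734 and 718748, and only timp4.3 passed the filter. The gene timp4.3 had 2.90, 3.70 and 4.70 FPKM in Lurasidone, against 1.09, 0.645 and 0.579 FPKM in control libraries (1.42 ± 0.20, adjusted p = 0.00444). The first of the row, timp4.1, had 0.784, 0.488 and 0.790 FPKM in Lurasidone, against 0.0425, 0.112 and 0.315 FPKM in control libraries, which is at most 16 fragments in a library. Its groups did not overlap, but it was too low to be tested. For timp4.2 the groups overlapped below 1 FPKM. Summed over the family, TIMP genes had 15.8, 16.8 and 20.1 FPKM in Lurasidone, against 8.49, 6.18 and 6.45 FPKM in control libraries, a ratio of the means of 2.49. With the unnamed TIMP2 model of the alternate contig added, an alternative chosen after seeing the data, the sums were 38.4, 40.2 and 46.9 FPKM in Lurasidone, against 27.9, 24.7 and 27.8 FPKM in control libraries, and the ratio was 1.56.

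Serpins are the largest family of the set. Of 23 genes, 21 were tested, 5 were higher (23.8%) and 3 of these were DEGs, and the median log2 fold change was 0.21. Over all tested genes 5.79% were higher and 2.61% were DEGs on the higher side. All 23 carry a serpin domain in the deposited annotation. In clades A, B and F, close relatives of called genes did not pass.

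Clade A holds the alpha-1-antitrypsin type of plasma serpin. The genes serpina1l (chromosome 20, 10538025 to 10541197) and serpina1 (10544100 to 10547411) lie next to each other on the plus strand and were the most abundant inhibitors of the set. The gene serpina1l had 334, 416 and 274 FPKM in Lurasidone, against 192, 167 and 151 FPKM in control libraries (0.99 ± 0.21, adjusted p = 0.0187), a mean 2.01 times as high that missed the fold threshold of a DEG on the log2 scale. In contrast, serpina1 had 89.9, 112 and 86.9 FPKM in Lurasidone, against 99.8, 102 and 79.9 FPKM in control libraries (0.04 ± 0.18, adjusted p = 0.917), with overlapping groups. The ratio of serpina1l to serpina1 was 3.72, 3.70 and 3.15 in the Lurasidone libraries, against 1.92, 1.64 and 1.89 in the control libraries. The call of serpina1l did not hold without Lurasidone replicate 1 (adjusted p = 0.0573) or 2 (0.0705) or without control replicate 1 (0.0591).

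The gene serpina10a, whose mammalian relative is the protein Z-dependent inhibitor of clotting factor X, was also higher. It had 35.8, 38.1 and 35.0 FPKM in Lurasidone, against 18.3, 21.999 and 22.9 FPKM in control libraries (0.76 ± 0.15, adjusted p = 0.0159). The adjusted p was 0.0502 without Lurasidone replicate 2, 0.0538 without Lurasidone replicate 3 and 0.0872 without control replicate 1. The last gene of the clade, serpina7, was listed at 0 to 0.299 FPKM in the Lurasidone and at 0 to 0.130 FPKM in the control libraries and was not tested. The summed level of clade A was 474 ± 86.3 FPKM in Lurasidone and 285 ± 28.5 FPKM in control libraries (SD, n = 3 each).

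Since many of these plasma inhibitors are known as liver products, the liver markers were set beside them. The summed level of the 11 liver markers was between 2845 and 3923 FPKM in Lurasidone and between 3593 and 4491 FPKM in control libraries. Of the 11 markers, 2 were higher (18.2%), 1 was lower (9.09%) and 8 did not pass. Over all tested genes 5.79% were higher and 3.90% lower. The median log2 fold change of the 11 markers was 0.04. None of the 11 was at 0. The part of liver content in the changes of plasma inhibitors was not tested.

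Clade B serpins act mostly inside cells, and the mammalian SERPINB1 protects white blood cells from their own elastase. Of the 6 zebrafish genes only serpinb14 was higher, where 5.79% of all tested genes were higher. This gene (chromosome 16, 51244297 to 51254694) had 13.7, 13.7 and 15.5 FPKM in Lurasidone, against 3.53, 4.45 and 3.71 FPKM in control libraries (1.64 ± 0.16, adjusted p = 0.00079). Its neighbours serpinb1l1 and serpinb1l4, within 54.8 kb, stayed between 0.809 and 3.73 FPKM in all libraries, with overlapping groups (adjusted p = 0.497 and 0.728). The gene serpinb1 was at 24.4 ± 2.71 FPKM in Lurasidone and 23.2 ± 3.18 FPKM in control libraries (0.07 ± 0.16, adjusted p = 0.809).

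The most abundant gene of clade B, serpinb1l3, varied more between libraries than between groups. It had 83.6, 35.2 and 63.3 FPKM in Lurasidone, against 93.5, 174 and 53.9 FPKM in control libraries (-0.74 ± 0.42, adjusted p = 0.274). Over 14 alternative settings its log2 fold change was between -1.15 and -0.31 and its adjusted p never fell below 0.0791. The summed level of the neutrophil and macrophage markers was between 32.5 and 46.2 FPKM in Lurasidone and between 29.7 and 36.5 FPKM in control libraries. Of these 8 markers 5 reached 1 FPKM and coro1a was listed at 0, and their part in the values of clade B was not tested.

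The gene serpine2, which encodes protease nexin-1, an inhibitor of thrombin and urokinase, was at 39.9 ± 6.15 FPKM in Lurasidone and 45.7 ± 4.53 FPKM in control libraries (SD, n = 3 each), and did not pass (-0.20 ± 0.17, adjusted p = 0.480). The gene serpine3 was near 1 FPKM in both groups (0.21 ± 0.26, adjusted p = 0.627).

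In clade F, serpinf2a was higher and its copy serpinf2b was not called. SERPINF2 is alpha-2-antiplasmin, the plasma inhibitor of plasmin, the enzyme that dissolves fibrin. The gene serpinf2a (chromosome 21, 40092301 to 40104916) had 16.1, 22.1 and 15.8 FPKM in Lurasidone, against 6.81, 7.03 and 8.20 FPKM in control libraries (1.18 ± 0.18, adjusted p = 0.00526). For serpinf2b (chromosome 15), the more abundant copy, the mean was 51.4 ± 6.44 FPKM in Lurasidone and 42.5 ± 6.66 FPKM in control libraries (SD, n = 3 each), with overlapping groups (0.27 ± 0.18, adjusted p = 0.340). The gene downstream of serpinf2a, serpinf1, encodes pigment epithelium-derived factor, a serpin without protease inhibition, and was at 35.3 ± 2.82 FPKM in Lurasidone and 35.8 ± 4.44 FPKM in control libraries (-0.02 ± 0.16, adjusted p = 0.963).

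Further serpins with single roles in plasma and neurons did not pass. The gene serping1, which encodes the C1 inhibitor of the complement and contact systems, had 6.23, 4.72 and 4.52 FPKM in Lurasidone, against 9.01, 9.15 and 7.11 FPKM in control libraries. All Lurasidone libraries were below all control libraries, but the test fell short (-0.62 ± 0.18, adjusted p = 0.0565), and it passed with a filter of 5 FPKM (0.0412) and without control replicate 3 (0.0446). The heparin-dependent thrombin inhibitor serpind1 (heparin cofactor II) had 3.79, 5.43 and 3.54 FPKM in Lurasidone, against 2.34, 2.38 and 2.93 FPKM in control libraries (0.55 ± 0.19, adjusted p = 0.0925). Neuroserpin, serpini1, an inhibitor of tissue-type plasminogen activator made by neurons, was at 4.195 ± 0.366 FPKM in Lurasidone and 4.98 ± 1.01 FPKM in control libraries (SD, n = 3 each), with an adjusted p of 0.521.

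Antithrombin, serpinc1, was listed at 0 in all 6 libraries. An unnamed model on an alternate contig spans the 5981 bases of the serpinc1 interval on chromosome 22 and has antithrombin-III as its best protein match. It had 1.67, 2.03 and 1.16 FPKM in Lurasidone, against 0.966, 2.09 and 1.15 FPKM in control libraries, with overlapping groups (0.14, adjusted p = 0.718). The 0 of serpinc1 therefore cannot be read as an absence of antithrombin RNA.

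The clade H serpins encode Hsp47, a chaperone of the endoplasmic reticulum that binds collagen and inhibits no protease. The log2 fold changes of its copies differed in sign and none passed. The gene serpinh1a had 9.42, 12.5 and 9.16 FPKM in Lurasidone, against 5.78, 7.36 and 9.58 FPKM in control libraries (0.42 ± 0.20, adjusted p = 0.211). The gene serpinh1b had 11.96, 16.01 and 14.4 FPKM in Lurasidone, against 19.6, 16.1 and 18.1 FPKM in control libraries (-0.33 ± 0.16, adjusted p = 0.220). The third gene, serpinh2, was at 1.55 ± 0.250 FPKM in Lurasidone and 1.92 ± 0.0787 FPKM in control libraries (SD, n = 3 each), with an adjusted p of 0.453. The ratio of serpinh1a to serpinh1b was 0.735 ± 0.0842 in Lurasidone and 0.427 ± 0.121 in control libraries, without overlap between the groups. This pair was chosen after values were seen, with log2 fold changes of opposite sign, so the separation of its ratio is no further evidence of a shift.

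**Figure D3:**
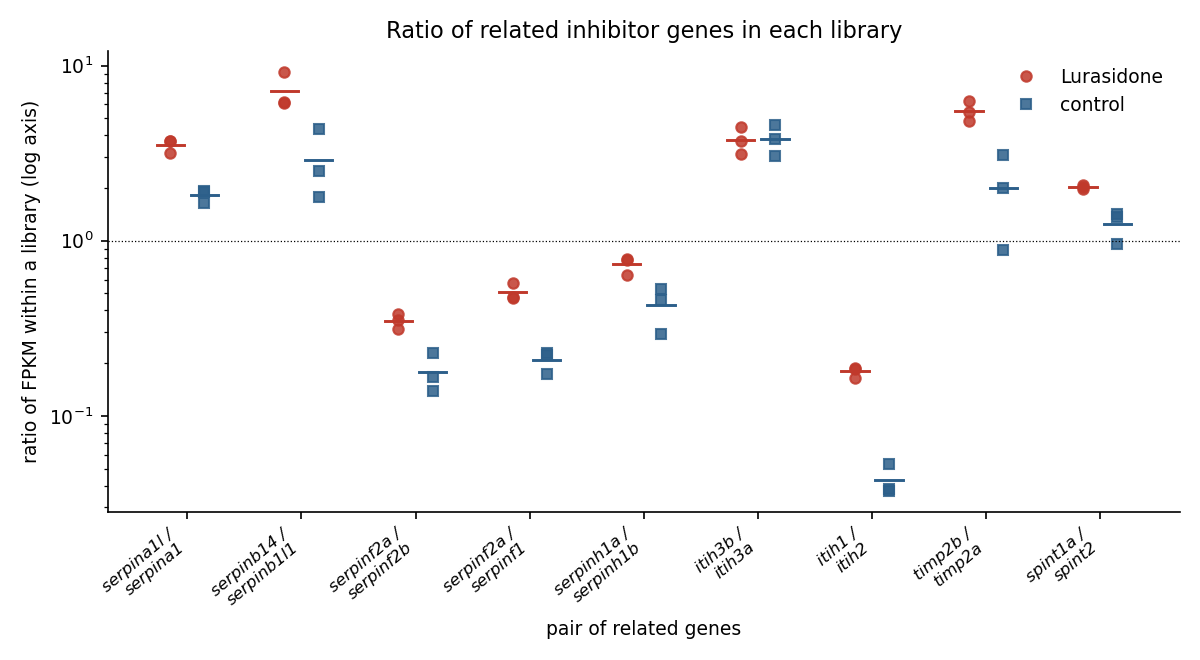
Ratio of FPKM between related inhibitor genes within each library, on a log axis, for 9 pairs chosen after their values were seen; circles are Lurasidone libraries, squares are control libraries and bars are group means. In 8 of the pairs the Lurasidone libraries lie above the control libraries, and in the pair itih3b and itih3a they overlap. Where a called gene is set over a relative without a call, such a separation follows from the choice of the pair. The choice also favours it in serpinh1a over serpinh1b and spint1a over spint2, uncalled genes with log2 fold changes of opposite sign.

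The 3 Kunitz-type genes gave no call. Their proteins, HAI-1 and HAI-2 in mammals, sit in the membrane of epithelial cells and hold matriptase in check, the protease encoded by st14a. Both copies of the HAI-1 gene had all Lurasidone libraries above all control libraries, as had 17.1% of all tested genes. The gene spint1a had 30.1, 35.1 and 28.0 FPKM in Lurasidone, against 23.8, 23.3 and 24.5 FPKM in control libraries (0.36 ± 0.15, adjusted p = 0.154). The gene spint1b had 11.1, 13.7 and 12.4 FPKM in Lurasidone, against 8.004, 7.07 and 9.04 FPKM in control libraries (0.57 ± 0.16, adjusted p = 0.0541). Of all members, spint1b came closest to the threshold without passing, and it passed with a filter of 5 FPKM (0.0382), with quantile normalization (0.0485), with voom (0.0480) and without control replicate 3 (0.0470).

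The third Kunitz-type gene, spint2, had 15.3, 16.8 and 13.9 FPKM in Lurasidone, against 16.8, 24.3 and 18.0 FPKM in control libraries (-0.33 ± 0.18, adjusted p = 0.258). A separate unnamed model on an alternate contig begins within the last 42 bases of spint2 and has a protease inhibitor of a sea anemone as its best protein match. It had 21.5, 20.8 and 14.9 FPKM in Lurasidone, against 10.7, 10.2 and 9.62 FPKM in control libraries, and was higher (0.83 ± 0.17, adjusted p = 0.0192). Whether this model and spint2 measure the same transcript was not tested.

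The single alpha-2-macroglobulin gene with a matching name, a2ml, encodes a large plasma protein that traps proteases of all classes. It had 25.3, 34.1 and 30.7 FPKM in Lurasidone, against 20.4, 16.02 and 26.98 FPKM in control libraries (0.51 ± 0.21, adjusted p = 0.146). One control library lay above the lowest Lurasidone library.

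Cystatins and Kazal-type genes gave no call on either side. Cystatin C, cst3, the general inhibitor of secreted cathepsins, was at 54.8 ± 9.98 FPKM in Lurasidone and 56.4 ± 6.51 FPKM in control libraries (SD, n = 3 each; -0.05 ± 0.18, adjusted p = 0.886). The fish cystatins of the cst14 group had log2 fold changes of opposite sign and did not pass. For cst14b.1 the values were 27.9, 44.4 and 25.2 FPKM in Lurasidone, against 18.7, 18.9 and 30.2 FPKM in control libraries (0.50 ± 0.25, adjusted p = 0.229). For cst14a.2 they were 25.8, 31.7 and 23.3 FPKM in Lurasidone, against 29.7, 37.1 and 36.0 FPKM in control libraries (-0.34 ± 0.17, adjusted p = 0.225). Their neighbours cst14a.1 and cst14b.2 were below 1 FPKM in every library.

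Among the Kazal-type genes, spink4 had the lowest log2 fold change of all members. It had 10.1, 9.57 and 4.72 FPKM in Lurasidone, against 14.97, 28.3 and 8.61 FPKM in control libraries, and the groups overlapped (-0.92 ± 0.39, adjusted p = 0.157). Without control replicate 3, its lowest control library, the log2 fold change was -1.31 and the adjusted p 0.0454. The gene spink2.1 was at 4.01 ± 0.906 FPKM in Lurasidone and 4.65 ± 0.444 FPKM in control libraries (SD, n = 3 each; adjusted p = 0.529). The genes spink2.2 to spink2.5, which lie with it on chromosome 14, had at most 3 fragments in a library.

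**Figure D4:**
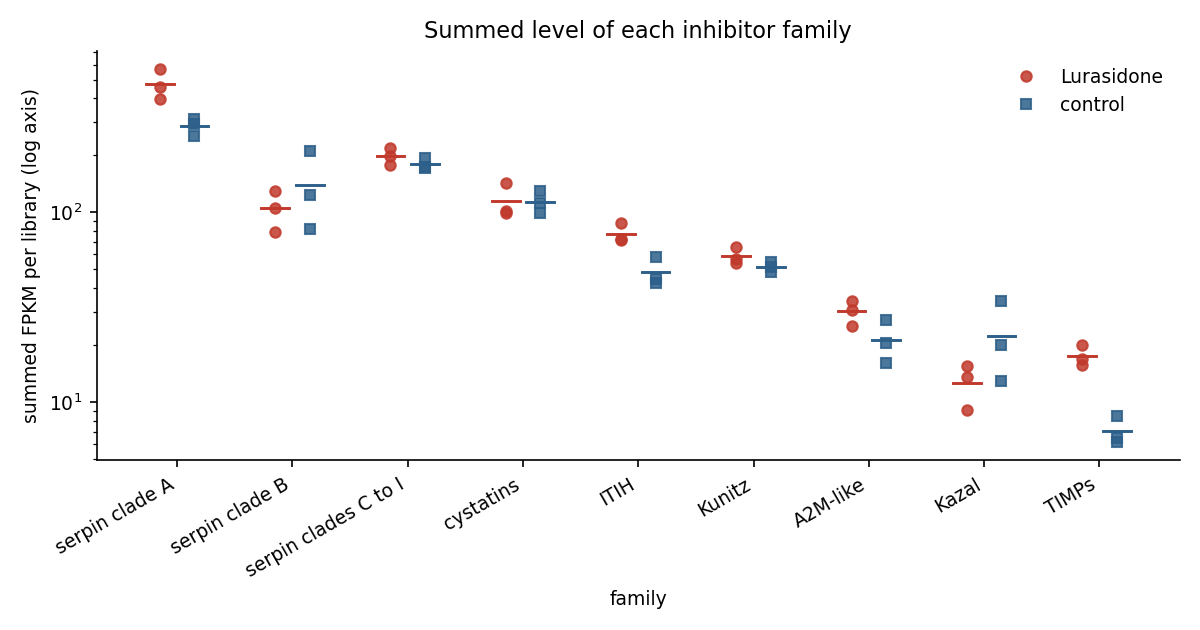
Summed FPKM of each inhibitor family in each library, with the serpins split into clades A, B and C to I, on a log axis; circles are Lurasidone libraries, squares are control libraries and bars are group means. Clade A serpins, ITIH genes and TIMPs lie higher in all Lurasidone libraries than in any control library, while the other sums drawn overlap between the groups. The TIMP sum holds only the genes chosen by name.

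Members chosen by name lay within 100 kb of each other in 10 clusters. In the itih3a and itih1 cluster both genes were higher, in the timp4, serpinb14, serpina1l and serpinf2a clusters 1 gene each was higher, and in the other 5 clusters none was. The other timp4 genes were not tested, and neighbours with other names are not in these counts. Of the 40 tested members 27.5% were higher, where 5.79% of all tested genes were. Whether called members cluster was not tested.

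Proteases and related genes were described from lists of gene names, to be read against the 5.79% of all tested genes called higher and 3.90% called lower. Of 17 tested genes of coagulation and fibrinolysis, 2 were higher (11.8%) and 0 lower (median log2 fold change -0.15), and no protease gene was among the called ones. These were f3b, a tissue factor gene whose product is the receptor and cofactor that starts clotting (7.64 ± 1.22 FPKM in Lurasidone and 3.03 ± 0.779 FPKM in control, adjusted p = 0.00945), and f13a1b, which encodes the transglutaminase chain of factor XIII, which cross-links fibrin (10.7 ± 3.70 FPKM in Lurasidone and 3.59 ± 0.862 FPKM in control, adjusted p = 0.0135). Plasminogen, plg, the precursor of the plasmin that serpinf2a inhibits, was at 41.3 ± 0.931 FPKM in Lurasidone and 45.9 ± 1.85 FPKM in control libraries (-0.15 ± 0.14, adjusted p = 0.518). Prothrombin, f2, was at 41.4 ± 2.32 FPKM in Lurasidone and 42.7 ± 8.34 FPKM in control libraries (adjusted p = 0.931).

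Among 33 tested metalloproteinases, 4 were higher (12.1%) and 0 lower (median -0.05). The gelatinase gene mmp2 had 97.2, 101 and 98.0 FPKM in Lurasidone, against 68.7, 58.4 and 69.4 FPKM in control libraries (0.59 ± 0.15, adjusted p = 0.0417). The other 3 were mmp30 (40.3 ± 7.86 FPKM in Lurasidone and 17.1 ± 1.203 FPKM in control, adjusted p = 0.00530), adamts8a (1.17 ± 0.22 on the log2 scale, adjusted p = 0.0138) and the gelatinase gene mmp9 (0.87 ± 0.21, adjusted p = 0.0342), which is also among the neutrophil and macrophage markers. The gene mmp14a, which encodes a membrane metalloproteinase of the MMP14 type, had 28.7, 24.8 and 27.2 FPKM in Lurasidone, against 34.0, 35.6 and 32.9 FPKM in control libraries, below in every library but not passing (-0.34 ± 0.14, adjusted p = 0.164). Thus timp2b and mmp2 were called in the same direction, and mmp14a was not called.

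Of 16 tested genes of cathepsins and legumain, 2 were higher (12.5%) and 0 lower (median 0.31). Most of these are cysteine proteases, the class that cystatins inhibit, while ctsd encodes an aspartic protease and ctsa a serine carboxypeptidase. These were ctsh (18.2 ± 1.01 FPKM in Lurasidone and 7.90 ± 0.635 FPKM in control, adjusted p = 0.00294) and ctsl.1 (80.5 ± 6.36 FPKM in Lurasidone and 31.0 ± 15.96 FPKM in control, adjusted p = 0.0157). The most abundant one, ctsla, had 539, 506 and 471 FPKM in Lurasidone, against 893, 1314 and 703 FPKM in control libraries, and did not pass (-0.89 ± 0.25, adjusted p = 0.0555). Legumain, lgmn, a cysteine protease that some cystatins also inhibit, was at 92.6 ± 15.8 FPKM in Lurasidone and 59.3 ± 6.67 FPKM in control libraries (adjusted p = 0.0570).

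Of 14 tested trypsin, chymotrypsin and elastase genes, made by the exocrine pancreas, 0 were higher and 2 lower (14.3%, median -0.12). The elastase gene cela1.3 had 12.1, 12.8 and 7.92 FPKM in Lurasidone, against 28.2, 44.6 and 19.8 FPKM in control libraries (-1.37 ± 0.28, adjusted p = 0.0181), and cela1.1 had 2.52 ± 0.805 FPKM in Lurasidone and 6.02 ± 1.13 FPKM in control libraries (adjusted p = 0.0202). The abundant trypsin genes prss1 and prss59.1 overlapped between the groups (adjusted p = 0.717 and 0.996). Of 13 tested membrane-anchored serine proteases, 1 was higher (7.69%), tmprss3a (1.26 ± 0.20, adjusted p = 0.00723). The matriptase gene st14a had 14.9, 17.3 and 14.5 FPKM in Lurasidone, against 10.9, 10.8 and 11.9 FPKM in control libraries. It was above in every library, as were 17.1% of all tested genes, and short of the threshold (0.44 ± 0.15, adjusted p = 0.0926).

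None of the 19 collagen genes of the list set beside Hsp47 passed by limma, with 0 higher and 0 lower (median -0.30). At an unadjusted p below 0.05 were 2 of them, against 6591 of all 23409 tested genes. The most abundant collagen gene, col1a1b, ranged from 322 to 852 FPKM in Lurasidone and from 393 to 1244 FPKM in control libraries. The gene col1a2 ranged from 246 to 592 FPKM in Lurasidone and from 323 to 973 FPKM in control libraries. A further list held inhibitors with other names and secreted or membrane proteins related to them, of which several, such as sparc and bsg, are not known as protease inhibitors. Of its 27 tested genes, 2 were higher (7.41%) and 0 lower (median 0.06), pi15a (1.18 ± 0.27, adjusted p = 0.0268) and ahsg1, a fetuin gene (0.94 ± 0.22, adjusted p = 0.0313). The most abundant genes of that list, fetub and sparc, did not pass (adjusted p = 0.646 and 0.409).

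**Figure D5:**
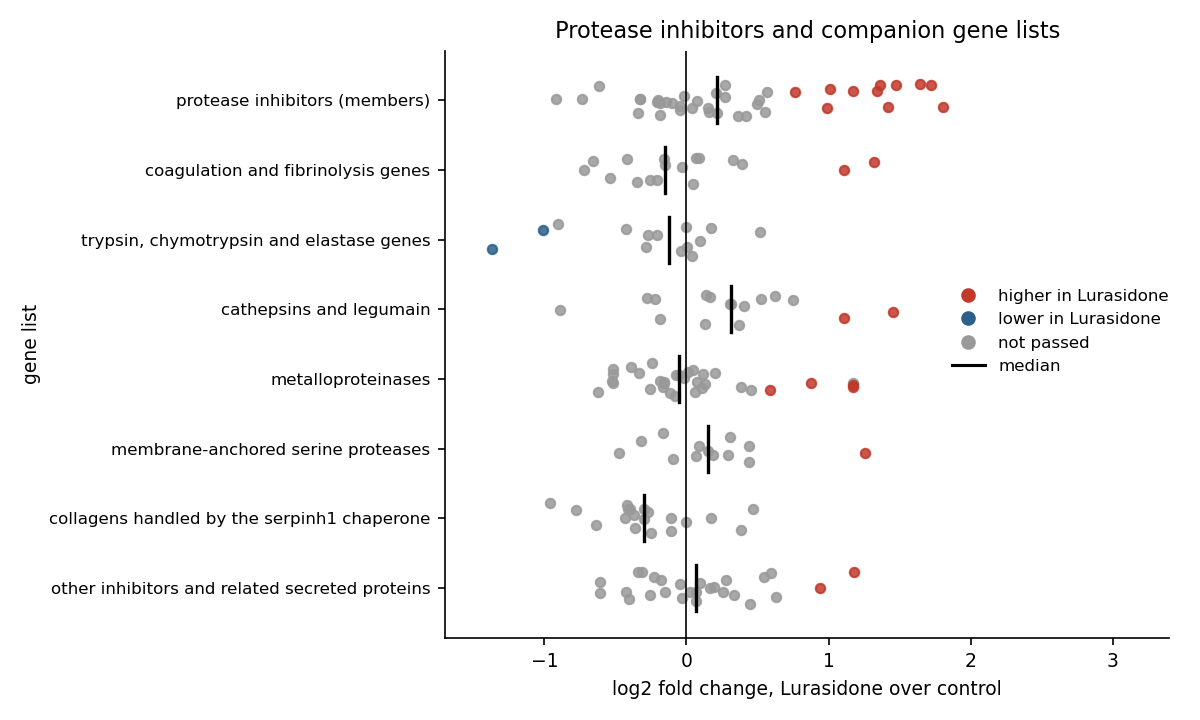
Log2 fold change (Lurasidone over control, on log2(FPKM + 1)) of each tested gene in the protease inhibitor set and in 7 companion lists; red points were higher, blue points lower, grey points did not pass and black bars are medians. The medians lie between -0.30 (collagens) and 0.31 (cathepsins and legumain), with 0.21 for the protease inhibitors, and points in the vertical direction are spread only to keep them apart.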

How the data were processed

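RNA-seq of 6 zebrafish libraries was analysed, 3 from the Lurasidone group and 3 from the control group, assigned by the sample labels. The authors deposited 1 table of FPKM values with gene lengths, and the submitters' processing notes name the builds GRCz11 and danRer11. Positions are those of the deposited table. The aligner, the counting tool and whether strand was used are not given in the sources used here. Columns of unknown samples numbered 0. FPKM times gene length gave whole fragments for 100% of the values (within 0.05), and the fragments came to between 84.5 and 104% of the FPKM denominators. The denominators were thus not the plain sums of fragments on genes, and how they were set is not given in the sources used here. Fragment counts cover counting error only.

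Genes reaching 0.5 FPKM in 3 or more libraries entered a limma model (version 3.58.1, R 4.3.3) of log2(FPKM + 1) on group, with a variance trend, and p-values were adjusted over all 23409 tested genes. Gene names come from the table, and all 49 member IDs were found in a table of gene symbols, 37 with the same symbol. The members, families and companion lists were chosen with earlier results of these data known. Named were every member that passed, the 4 members of highest mean FPKM in each family or serpin clade, and in each companion list the 3 smallest adjusted p among those that passed and the 2 of highest mean FPKM. The genes itih5, timp4.2, spink2.2 to spink2.5, cst14b.2, serpinb1l1 and ambp were chosen after their values were seen. So were the unnamed models, the pairs of the ratio plot and the genes under other observations. One called member is not named here and is missing from the plots with gene names, while counts and sums include it. The steps were tested on simulated data. Alternatives were a filter of 5 FPKM or none, 0.1 as the pseudocount, median-ratio scaling, quantile normalization, no variance trend, the replicate number as a block, leaving out each library, and limma voom on fragments. Figures were drawn with matplotlib 3.10.9. No sequences were used here.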

Additional observations from a re-analysis of the deposited data

How the results depend on the processing

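The number of protease inhibitor genes higher in Lurasidone, 11, was between 8 and 12 under the 14 alternatives, and without each library in turn between 8 (without Lurasidone replicate 2 or control replicate 1) and 12 (without control replicate 3). The number of DEGs, 9, was between 7 and 10. The number of genes lower, 0, was 1 with a filter of 5 FPKM (serping1) and between 0 and 2 without each library, with 2 (serping1 and spink4) without control replicate 3. Calls over all tested genes also moved with the setting. Those lower numbered 807 of 10063 with a filter of 5 FPKM and 1369 of 23409 without control replicate 3, against 914. Those higher numbered 506 without control replicate 1, 709 without Lurasidone replicate 2 and 1383 without control replicate 3, against 1356. Of the 11 genes called, 8 kept the call in all alternatives in which they were tested, and itih6, serpina10a and serpina1l lost it in 6, 3 and 3. Over 508 log2 fold changes of 37 named genes, 489 stayed on the same side of the threshold, 12 lost and 7 gained the call, and 0 calls reversed. Some genes without a call changed sign between settings, such as cst3 (-0.19 to 0.06). The median log2 fold change of all tested genes stayed between -0.11 (filter of 5 FPKM) and 0.08 (voom).

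With the replicate number as a block, 11 genes were higher, 0 were lower and 9 were DEGs, and over all tested genes 869 were higher and 497 lower, against 1356 and 914 without the block. Deviations from the group means correlated by 0.12, -0.10 and 0.0056 for equal replicate numbers, and not every library correlated best with its own number, so the numbers were not taken to pair the libraries. Low depth limits timp4.1, timp4.2, serpina7, cst14b.2 and spink2.2 to spink2.5, which had between 1 and 16 fragments at most.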

Other observations

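Relatives of the inhibitors that carry other names were looked at by position and best protein match, after values had been seen, so their counts are descriptions. By annotated domain, 1 of 18 tested Kunitz relatives, 1 of 10 cystatin relatives and 0 of 4 Kazal relatives were higher. Of relatives with a serpin domain 4 were tested. The only one called, zgc_174259, met the filter only through the Lurasidone libraries, so no share is drawn from it. With an alpha-2-macroglobulin family domain, which complement genes share, 8 of 18 were higher. Among these were the complement genes c3a.2, c3a.3, c3b.2 and c4b and an alternate contig model over c3b.1 and c3b.2. The other called ones are counted again on chromosome 15 below. None of the domain groups held a lower gene. Over all tested genes 5.79% were higher and 3.90% lower. On chromosome 11 the gene directly after itih3b, zgc_112265 (37201483 to 37229533), is listed as itih3b.2 in the table of current symbols. It had 69.7, 101 and 73.6 FPKM in Lurasidone, against 30.4, 35.5 and 38.1 FPKM in control libraries (1.19 ± 0.19, adjusted p = 0.00600). On chromosome 15 further models with an alpha-2-macroglobulin as best protein match were listed between 17887307 and 21239416, where a2ml also lies. Of 9 such models besides a2ml, 4 are annotated as protein coding, 4 as unprocessed pseudogenes and 1 as a lincRNA. Of the 9, 8 were tested, and in all 8 the Lurasidone libraries lay above the control libraries, with 5 higher, 3 of them DEGs, and 0 lower by limma. Over all tested genes these shares were 17.1% above, 5.79% higher, 2.61% DEGs on the higher side and 3.90% lower. The model CR626907.1, one of the pseudogenes, had 14.6, 19.96 and 18.1 FPKM in Lurasidone, against 5.28, 5.64 and 7.93 FPKM in control libraries (1.36 ± 0.19, adjusted p = 0.00394). The direct neighbour of a2ml, sb_cb37, had 16.7, 30.7 and 19.2 FPKM in Lurasidone, against 6.93, 7.16 and 10.5 FPKM in control libraries (1.31 ± 0.24, adjusted p = 0.0117). How reads were divided between these models is not given in the sources used here.

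On chromosome 5, serpina7 stands between further genes whose best protein match is an alpha-1-antiproteinase. The gene zgc_174259 had 1.44, 4.45 and 3.46 FPKM in Lurasidone, which is 29, 90 and 69 fragments, and was listed at 0 in all 3 control libraries. It met the filter only through the Lurasidone libraries, so no p-value is given for it. Also with a serpin domain, the angiotensinogen gene agt had 57.4, 68.8 and 71.8 FPKM in Lurasidone, against 46.4, 29.6 and 45.3 FPKM in control libraries (0.71, adjusted p = 0.0552).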
